A study of Mus musculus with 12 samples.

Results

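Genes that make, carry and clear retinoic acid were followed in the 1-month-old brain of mice with and without *Snx14*, the gene of a sorting nexin that moves lipids between organelles. They are *Rdh10*, *Aldh1a1*, *Aldh1a2*, *Aldh1a3*, *Cyp26b1*, *Rbp4*, *Stra6*, *Crabp1* and *Crabp2*, 9 of the 55536 genes counted. *Aldh1a2* was picked for its higher count in *Snx14*-KO cerebellum, so its values in that tissue are a description and carry no test. The other 8 were taken for what they do. RNA of cerebellum and of cerebral cortex was sequenced, with 3 libraries for every pair of tissue and genotype and 12 in all. The WT and *Snx14*-KO mice had a C57BL/6J background, and the *Snx14*-KO mice carried on both alleles, in every cell of the body, a single-base frameshift deletion made with Cas9. All mice of the 4 groups were 1 month of age. The labels number the mice 1 to 3 within a genotype and use the same number for both tissues. Each library held whole tissue with a mix of cell types, so fewer cells of a type and less RNA per cell cannot be told apart.

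Retinoic acid is made from vitamin A inside cells and acts on genes through nuclear receptors. Retinol travels in blood bound to RBP4, enters some cells through STRA6, is oxidized to retinaldehyde by RDH10 and then to retinoic acid by the ALDH1A enzymes, while CYP26B1 breaks retinoic acid down and the CRABP proteins carry it in the cytoplasm. In the brain, *Aldh1a2* is best known from the meninges, the membranes around the brain, and *Aldh1a1* from selected neurons and glia.

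The sequence before the start of 3 of these genes is shown because the libraries set them apart: *Aldh1a2* was the gene picked for *Snx14*-KO cerebellum, *Aldh1a1* was the most abundant of the 9, and *Rbp4* was the one of the 8 tested genes that was lower in cerebellum than in cortex. They are the 250 bases before the start in RefSeq, on GRCm38.p6, read along the strand of the gene. The capitals mark the letters CCAAT and ATGCAAAT, the CCAAT box and the octamer, found on either strand. The windows are chr9:71215539-71215788 on the plus strand for *Aldh1a2*, chr19:20601718-20601967 on the plus strand for *Aldh1a1* and chr19:38125322-38125571 on the minus strand for *Rbp4*. The window of *Aldh1a1* is that of 1 of 2 starts in RefSeq. It lies inside the gene as counted, which runs from 20492715 to 20643465.
Aldh1a2: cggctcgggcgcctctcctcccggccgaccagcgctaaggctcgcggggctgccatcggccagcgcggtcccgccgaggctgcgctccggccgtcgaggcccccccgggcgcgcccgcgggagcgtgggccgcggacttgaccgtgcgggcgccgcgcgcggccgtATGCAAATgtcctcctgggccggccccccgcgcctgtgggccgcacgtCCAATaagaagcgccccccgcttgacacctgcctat
Aldh1a1: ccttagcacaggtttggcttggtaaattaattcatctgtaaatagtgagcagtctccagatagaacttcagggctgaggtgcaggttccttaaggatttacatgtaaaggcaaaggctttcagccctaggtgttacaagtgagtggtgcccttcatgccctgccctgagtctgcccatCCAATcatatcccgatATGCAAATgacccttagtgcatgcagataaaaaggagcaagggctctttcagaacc
Rbp4: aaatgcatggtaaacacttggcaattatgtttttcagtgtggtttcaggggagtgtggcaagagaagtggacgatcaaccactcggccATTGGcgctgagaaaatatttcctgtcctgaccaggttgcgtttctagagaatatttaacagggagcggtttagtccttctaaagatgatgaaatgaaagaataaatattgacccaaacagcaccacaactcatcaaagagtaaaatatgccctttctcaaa

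Both *Aldh1a2* and *Aldh1a1* held a CCAAT and an ATGCAAAT. In *Aldh1a2* the octamer began 84 bases and the CCAAT 36 bases before the start, and in *Aldh1a1* they began 56 and 72 bases before it, so the order of the 2 motifs was opposite. Of 32841 such windows in RefSeq, 1.6% held ATGCAAAT, 33.9% held CCAAT and 0.767% held both. *Rbp4* held a CCAAT on the opposite strand. The window of *Aldh1a2* was 77.6% G and C, against 46.4% in *Aldh1a1*, 40.8% in *Rbp4* and a median of 52.4% over all windows. The retinoic acid receptor half-sites AGGTCA and AGTTCA, present in 14% and 11.8% of all windows, were in none of the 6 windows matched to these genes, which are those of *Aldh1a1*, *Aldh1a2*, *Rbp4*, *Crabp1*, *Stra6* and *Cyp26b1*. The letters TATAAA were found in the window of *Cyp26b1*, as in 12.4% of all windows, and GGGCGG in those of *Crabp1* and *Cyp26b1*, as in 32.7%. These letters were chosen after the sequences had been read.

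In all libraries, the counts on genes summed to 16672589 to 19887427. The count of *Snx14* was 82.7% to 84.0% lower in each *Snx14*-KO cerebellum than the WT mean and 84.9% to 86.3% lower in each *Snx14*-KO cortex. A few libraries stood apart in genes of neighbouring tissue. The summed count of 13 choroid plexus genes ran from 92.1 to 7650 CPM in WT and from 1010 to 3300 CPM in *Snx14*-KO cerebellum. *Six3*, a gene of striatal and other forebrain neurons, was at 8.83 and 9.36 CPM in *Snx14*-KO cerebellum 1 and 3 and at 0 in *Snx14*-KO cerebellum 2, and was named after its values were seen. *Nrgn*, a gene of forebrain neurons also named after its values were seen, was at 121 and 117 CPM in these 2 libraries, at 9.14 CPM in *Snx14*-KO cerebellum 2 and at 1.98 to 6.16 CPM in WT cerebellum. The mean of log2(CPM + 1) over the 10 striatal neuron genes, relative to the average of the 6 cerebella, was 0.64 and 0.59 in *Snx14*-KO cerebellum 1 and 3, -0.33 in *Snx14*-KO cerebellum 2 and -0.35 to -0.25 in WT. Over the 12 forebrain neuron genes it was 0.44, -0.09 and 0.42 in *Snx14*-KO cerebellum 1 to 3 and -0.34 to -0.16 in WT. The summed CPM of the striatal genes, most of it from *Ppp1r1b* and *Penk*, overlapped at 307 to 386 in *Snx14*-KO and 363 to 421 in WT cerebellum. In cortex the 10 genes summed to 750 CPM in WT cortex 2, against 286 to 368 CPM in the 5 other cortices. The 18 meningeal fibroblast genes summed to 470 CPM in *Snx14*-KO cortex 2, against 131 to 189 CPM in the other cortices.

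*Aldh1a2* (ENSMUSG00000013584.5) was the member with the highest fold change between *Snx14*-KO and WT cerebellum, the value it was picked on. Without WT cerebellum 2 *Crabp2* was higher, at 1.79 against 1.71 on the log2 scale. *Aldh1a2* lies on the plus strand of chromosome 9 of GRCm38, the build of all positions here, from 71215789 to 71296243. Levels are given as CPM, the counts relative to library size after scaling by the TMM method. *Aldh1a2* was at 4.83, 8.70 and 6.22 CPM in WT cerebellum 1 to 3 and 17.3, 19.1 and 17.6 CPM in *Snx14*-KO cerebellum 1 to 3. Each *Snx14*-KO cerebellum was above each WT cerebellum. The means were 6.59 ± 1.96 CPM (SD, n = 3) and 18.0 ± 0.961 CPM (SD, n = 3), a log2 fold change of 1.47 with a standard error (SE) of 0.197. Without *Snx14*-KO cerebellum 1 and 3, the libraries with *Six3*, it was 1.55, a value that sets 1 *Snx14*-KO library against 3 WT libraries and is no check of the spread. Since the gene was picked on this difference, no p is given. A gene was called where edgeR's quasi-likelihood test gave an adjusted p under 0.05 and the change was beyond 0.50 on the log2 scale in either direction. Of 18201 genes, 1 was called in cerebellum (0.00549%), which was *Snx14*. DESeq2 called 164 genes (0.901%), of which 153 were higher, and none of the 8 other genes was among them.

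In cortex, *Aldh1a2* was at 6.05, 4.56 and 5.97 CPM in WT and at 6.18, 11.2 and 5.30 CPM in *Snx14*-KO libraries 1 to 3. Only *Snx14*-KO cortex 2 lay above the WT range by more than a small step, and the groups overlapped. With 3 libraries a group, the fitted change was 0.46 on the log2 scale (SE 0.258, adjusted p = 0.996 by edgeR's quasi-likelihood test), and without *Snx14*-KO cortex 2 it was 0.05. The log2 fold change in cerebellum was 1.00 higher than in cortex (SE 0.362), a difference that includes the picked one and so has no test. WT cerebellum and WT cortex overlapped in *Aldh1a2*. Per kilobase of exon, *Aldh1a2* held rank 5 among the 9 genes in WT cerebellum, at 2.91 CPM per kb ± 0.867 (SD, n = 3), and rank 2 in *Snx14*-KO cerebellum, at 7.95 CPM per kb ± 0.425 (SD, n = 3).

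**Figure D1:**
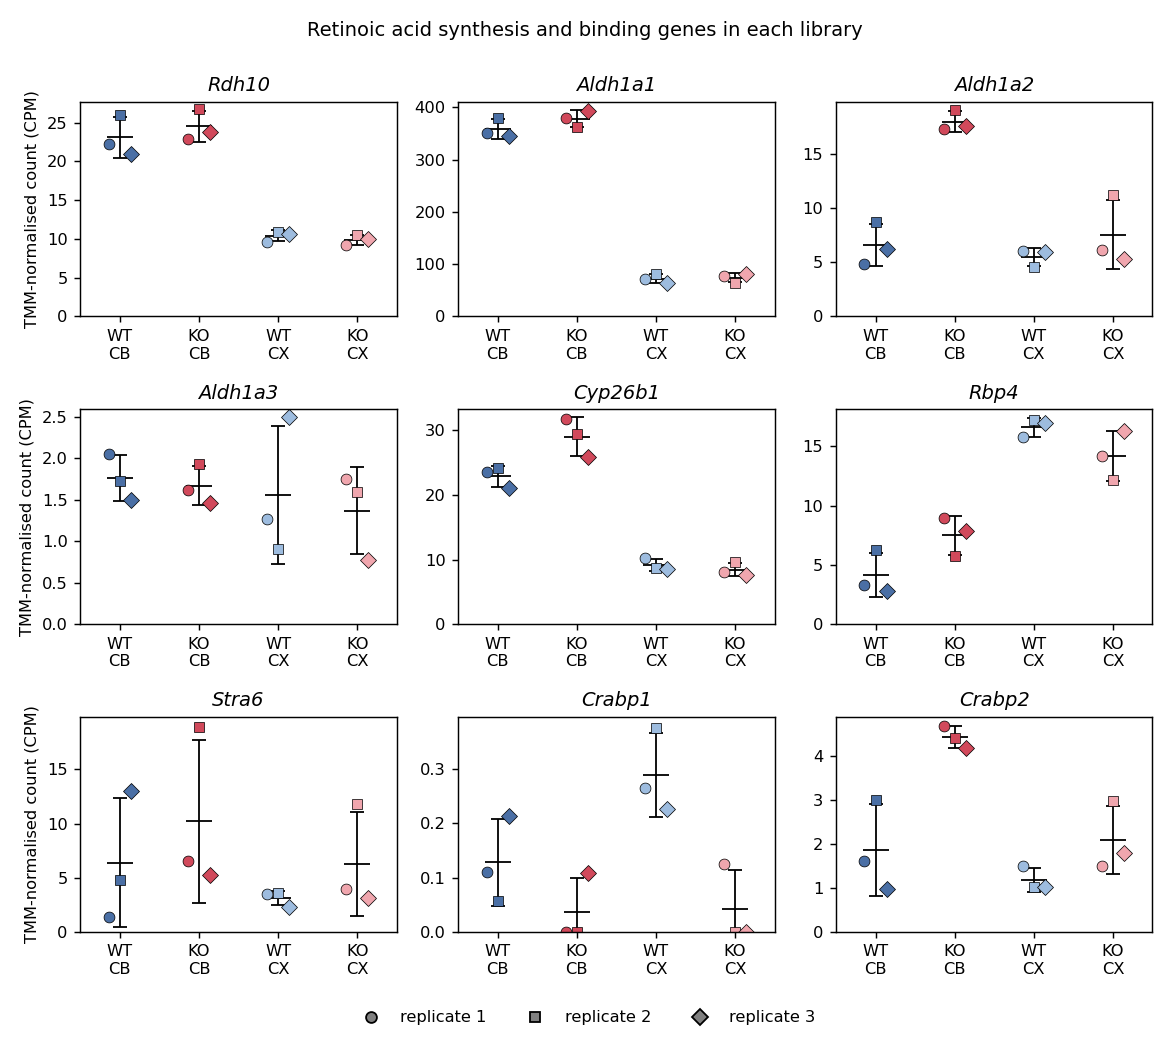
TMM-normalized count (CPM, linear axes from 0) of the 9 genes in each library of WT and *Snx14*-KO (KO) cerebellum (CB) and cortex (CX); points are libraries, bars the mean and SD of 3. *Aldh1a2*, *Crabp2* and *Cyp26b1* in *Snx14*-KO cerebellum sit above all 3 WT cerebella, and *Stra6* spreads from 1.39 to 18.9 CPM in cerebellum.

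Genes of meningeal fibroblasts stood higher in the same libraries. Of 18 such genes, 17 had a higher count in *Snx14*-KO than in WT cerebellum, and the median of their log2 fold changes was 1.15, while that of all genes tested was -0.00. By edgeR 15 of the 18 had an unadjusted p under 0.05, as had 8.15% of all genes tested, and none was called. DESeq2 called 11, all higher in *Snx14*-KO, against 0.901% of all genes. Other lists also leaned one way in this comparison, with no gene called by edgeR. Of 12 astrocyte and Bergmann glia genes 10 were higher (median 0.27, 6 at an unadjusted p under 0.05). So were 10 of 12 endothelial genes (median 0.15), while 12 of 13 cerebellar neuron genes were lower (median -0.20). The meningeal genes' summed count ran from 216 to 425 CPM in WT and from 555 to 609 CPM in *Snx14*-KO cerebellum, and none of the genes was at 0 in any library. *Col1a1*, a collagen, was at 11.9, 19.0 and 11.9 CPM in WT cerebellum and at 25.8, 32.4 and 35.4 CPM in *Snx14*-KO cerebellum. *Foxc1*, a transcription factor of the meninges, was at 3.55, 5.30 and 3.81 CPM in WT and at 7.97, 8.98 and 8.39 CPM in *Snx14*-KO cerebellum. *Aldh1a2* made up 2.24%, 2.05% and 1.62% of the meningeal sum in WT and 2.85%, 3.44% and 2.89% in *Snx14*-KO cerebellum. These shares contain the counts *Aldh1a2* was picked on, so they are a description and carry no test. In cortex, its share of the sum was 3.20%, 3.49% and 4.17% in WT and 3.41%, 2.38% and 3.10% in *Snx14*-KO libraries. There, 17 of the 18 genes were higher in *Snx14*-KO with a median of 0.75, none called by either tool, and the median was 0.17 without *Snx14*-KO cortex 2. The part of meningeal RNA in the difference of *Aldh1a2* was not tested.

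None of the other enzymes that make retinaldehyde and retinoic acid was called between the genotypes in either tissue. *Rdh10* (ENSMUSG00000025921.7, chromosome 1, 16105774 to 16133734, plus strand), which makes retinaldehyde from retinol, was at 22.2, 26.0 and 21.0 CPM in WT and at 22.9, 26.8 and 23.8 CPM in *Snx14*-KO cerebellum. Its log2 fold change was 0.10 (SE 0.113, adjusted p = 0.919 by edgeR). *Aldh1a1* (ENSMUSG00000053279.8, chromosome 19, 20492715 to 20643465, plus strand), also a retinaldehyde dehydrogenase, was at 351, 380 and 346 CPM in WT and at 380, 362 and 394 CPM in *Snx14*-KO cerebellum. With a log2 fold change of 0.09 (SE 0.0703, adjusted p = 0.856 by edgeR), its groups overlapped. WT cortex held *Rdh10* at a mean of 10.4 ± 0.719 CPM (SD, n = 3), against 9.88 ± 0.673 CPM (SD, n = 3) in *Snx14*-KO libraries. *Aldh1a1* was at 72.3 ± 8.95 CPM (SD, n = 3) and 74.3 ± 8.62 CPM (SD, n = 3) there, and both genes overlapped between the groups. *Aldh1a3* (ENSMUSG00000015134.15, chromosome 7, 66390890 to 66427517, minus strand), another retinaldehyde dehydrogenase, was low in every library, between 0.774 and 2.5 CPM, with no order of the groups. Its log2 fold change was -0.06 in cerebellum (SE 0.270) and -0.18 in cortex (SE 0.421).

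*Cyp26b1* (ENSMUSG00000063415.12, chromosome 6, 84571414 to 84593908, minus strand), which clears retinoic acid, was at 23.5, 24.2 and 21.1 CPM in WT and at 31.8, 29.5 and 25.8 CPM in *Snx14*-KO cerebellum. The lowest *Snx14*-KO value exceeded the highest WT value, with a log2 fold change of 0.35 (SE 0.102), but the test was not passed (adjusted p = 0.358 by edgeR). In cortex the log2 fold change was -0.12 (SE 0.151, adjusted p = 0.996 by edgeR) and the groups overlapped.

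*Crabp2* (ENSMUSG00000004885.5, chromosome 3, 87948666 to 87953376, plus strand), which passes retinoic acid to its receptors, was at 1.61, 3.00 and 0.965 CPM in WT cerebellum and at 4.68, 4.41 and 4.17 CPM in *Snx14*-KO cerebellum. Every *Snx14*-KO cerebellum was above every WT cerebellum, and the log2 fold change of 1.27 (SE 0.352) did not pass the test (adjusted p = 0.343 by edgeR and 0.0696 by DESeq2). In cortex *Crabp2* was at 1.49, 1.02 and 1.02 CPM in WT and at 1.5, 2.96 and 1.79 CPM in *Snx14*-KO libraries. These groups were also apart, at 1.49 against 1.5 CPM for the closest pair, with a log2 fold change of 0.83 (SE 0.337, adjusted p = 0.996 by edgeR), which was 0.48 without *Snx14*-KO cortex 2 and 0.38 when WT cortex 2 was left out too. As a share of the meningeal sum, *Crabp2* was at 0.567% ± 0.274 (SD, n = 3) in WT cerebellum and reached 0.749% ± 0.0577 (SD, n = 3) in cerebellum without *Snx14*, and at 0.761% ± 0.0395 (SD, n = 3) and 0.833% ± 0.207 (SD, n = 3) in the cortices, and the shares overlapped in both tissues. Of the genes tested, 6.21% had all 3 *Snx14*-KO cerebella above all 3 WT cerebella, and 4.57% had all 3 *Snx14*-KO cortices above all 3 WT cortices. In the other direction the shares were 6.32% and 4.67%, with none of the 8 tested genes among them. Beside *Aldh1a2*, 2 of the 7 other genes tested did so in cerebellum and 1 of 7 in cortex. *Crabp1* (ENSMUSG00000032291.8, chromosome 9, 54764748 to 54773110, plus strand), the other binding protein, was almost absent, with 7 read pairs over the WT and 2 over the *Snx14*-KO cerebella, and 16 over the WT and 2 over the *Snx14*-KO cortices. It fell under the count filter and was not tested.

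*Rbp4* (ENSMUSG00000024990.13, chromosome 19, 38116629 to 38125281, minus strand), the retinol carrier of blood, was at 3.33, 6.28 and 2.84 CPM in WT and at 8.98, 5.73 and 7.84 CPM in *Snx14*-KO cerebellum. WT cerebellum 2 reached into the *Snx14*-KO range. Its fitted change was 0.87 on the log2 scale (SE 0.299, adjusted p = 0.445 by edgeR), and 0.48 with only *Snx14*-KO cerebellum 2 kept in that group. In cortex *Rbp4* was at 15.8, 17.2 and 17.0 CPM in WT and at 14.2, 12.2 and 16.3 CPM in *Snx14*-KO libraries, with a log2 fold change of -0.23 (SE 0.128, adjusted p = 0.996 by edgeR). Its change in cerebellum exceeded that in cortex by 1.09 on the log2 scale (SE 0.335), which the test of the difference did not call (adjusted p = 0.518 by edgeR). That test called 0.0% of 19380 genes with edgeR (1100 at an unadjusted p under 0.05) and 0.206% with DESeq2, none of the 8 genes other than *Aldh1a2* among them.

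*Stra6* (ENSMUSG00000032327.14, chromosome 9, 58063788 to 58153996, plus strand), the retinol transporter, varied widely between libraries of a group. It was at 1.39, 4.78 and 13.0 CPM in WT and at 6.54, 18.9 and 5.25 CPM in *Snx14*-KO cerebellum. In WT cerebellum this followed the choroid plexus genes, which summed to 92.1, 2820 and 7650 CPM in libraries 1 to 3, and *Ttr*, the transthyretin of choroid plexus that carries RBP4, was at 53.1, 2510 and 6850 CPM. In *Snx14*-KO cerebellum the sums were 2110, 3300 and 1010 CPM. The 13 genes were all lower in *Snx14*-KO cerebellum, none called by either tool, and their median of -0.71 on the log2 scale became 0.45 without WT cerebellum 3. In cortex, *Stra6* was at 3.5, 3.54 and 2.33 CPM in WT and at 3.93, 11.8 and 3.10 CPM in *Snx14*-KO libraries. *Snx14*-KO cortex 2, the library with the high meningeal sum, was the high one, and its choroid plexus sum was only 24.6 CPM. For *Stra6* the fitted change on the log2 scale was 0.68 in cerebellum (SE 0.687) and 1.01 in cortex (SE 0.422, adjusted p = 0.996 by edgeR). Without *Snx14*-KO cerebellum 2 the first was -0.12, without WT cerebellum 3 it was 1.74, and without *Snx14*-KO cortex 2 the second was 0.16. The part of choroid plexus and meningeal RNA in these values was not tested.

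**Figure D2:**
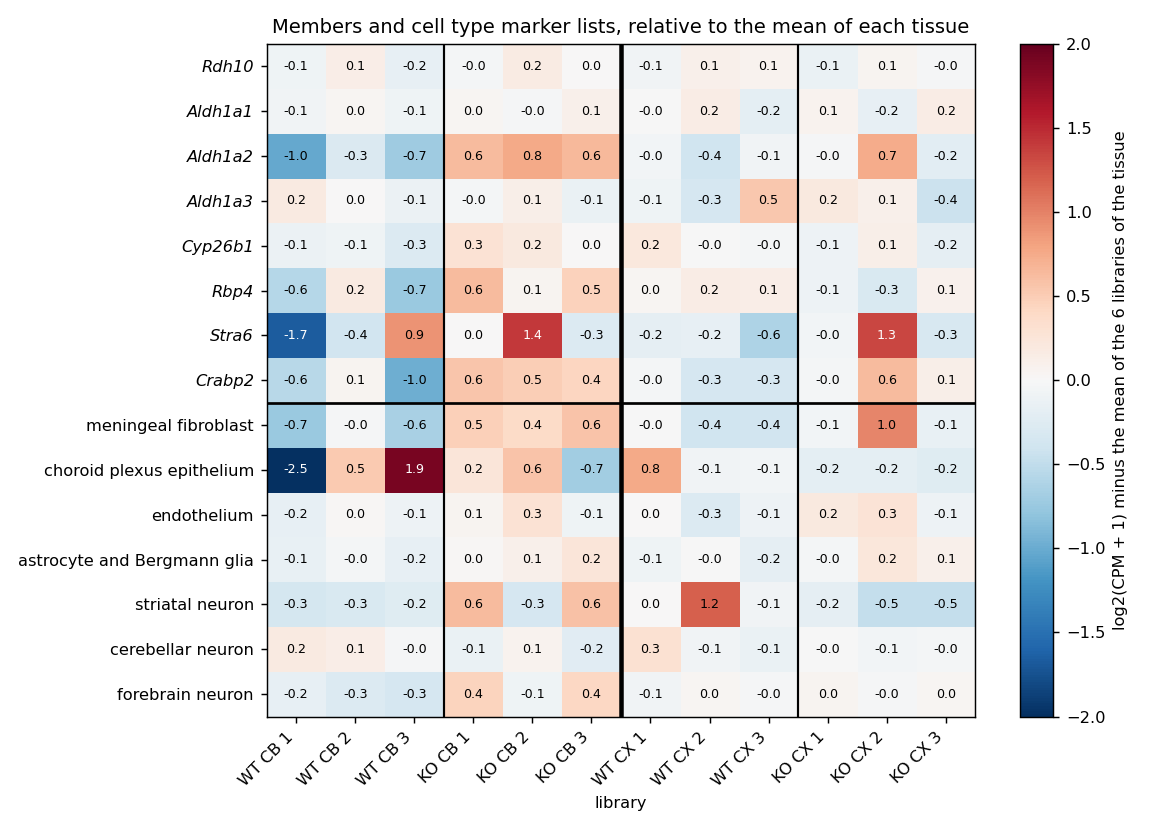
log2(CPM + 1) of 8 of the genes, and its mean over each cell type marker list, relative to the average over the 6 cerebellum or 6 cortex libraries (colour and printed value), for WT and *Snx14*-KO (KO) cerebellum (CB) and cortex (CX). *Aldh1a2*, *Crabp2* and the meningeal list are high in all 3 *Snx14*-KO cerebella and in *Snx14*-KO cortex 2, and *Stra6* is high in WT cerebellum 3, *Snx14*-KO cerebellum 2 and *Snx14*-KO cortex 2.

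Across the 12 libraries, with each gene centred within its tissue, *Aldh1a2* went with *Crabp2* (Pearson's r = 0.90) and *Cyp26b1* (r = 0.72) and not with *Aldh1a1* (r = -0.02). These correlations are descriptions, since the libraries of a group share their genotype and the choice of *Aldh1a2* shapes them. Among 17055 genes, the 3 most like *Aldh1a2* were *Gypc* (r = 0.956), *Col12a1* (r = 0.956), a collagen, and *Anpep* (r = 0.952), an aminopeptidase. Those most like *Crabp2* were *Sh3pxd2a* (r = 0.953), *Ccn3* (r = 0.949) and *Sdk1* (r = 0.946). Among those most like *Stra6* were *Id3* (r = 0.938) and *Tm4sf1* (r = 0.922). For *Rbp4* they were *Igfbp4* (r = 0.933), *Cav2* (r = 0.932) and *Shisa7* (r = 0.921), and for *Cyp26b1* they were *Nxpe4* (r = 0.900), *Pxdn* (r = 0.895) and *Cers1* (r = 0.892). *Aldh1a1* had *Tmem18* (r = 0.943), *Prodh* (r = 0.941) and *Ebag9* (r = 0.923). *Rdh10* had *Gm48482* (r = 0.943), *Zfp426* (r = 0.883) and *Crat* (r = 0.864), and *Aldh1a3* had *Syna* (r = 0.973), *6820431F20Rik* (r = 0.938) and *Maml3* (r = 0.913).

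More genes were called between the tissues than between the genotypes. In WT mice, edgeR called 40.4% of 18543 genes between cerebellum and cortex, and 4 of the 7 tested genes other than *Aldh1a2*. *Aldh1a1* was 359 ± 18.7 CPM (SD, n = 3) in WT cerebellum and 72.3 ± 8.95 CPM (SD, n = 3) in WT cortex, a log2 fold change of 2.31 (SE 0.0928, adjusted p = 8.35e-09 by edgeR). *Cyp26b1* was higher in cerebellum by 1.32 on the log2 scale (SE 0.119, adjusted p = 4.57e-06 by edgeR) and *Rdh10* by 1.16 (SE 0.120, adjusted p = 1.34e-05 by edgeR). *Rbp4* went the other way, with a log2 fold change of -2.0 (SE 0.246, adjusted p = 4.89e-05 by edgeR), and its cerebella lay below all 3 cortices. *Crabp2*, *Stra6* and *Aldh1a3* overlapped between the tissues and were not called. *Stra6* was called, as higher in cerebellum, with no filter (1.03), without WT cerebellum 1 (1.51) and without that library and WT cortex 2 (1.61), and *Crabp2* without WT cerebellum 3 (0.97), where *Stra6* was at -0.02.

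In *Snx14*-KO mice, where 37.9% of 18542 genes were called, the same 4 genes passed in the same directions. The log2 fold changes were 2.36 for *Aldh1a1* (SE 0.0982), 1.79 for *Cyp26b1* (SE 0.133), 1.31 for *Rdh10* (SE 0.117) and -0.91 for *Rbp4* (SE 0.187). *Crabp2* was called as well, at 1.08 (SE 0.271, adjusted p = 0.00735 by edgeR). *Stra6*, at 0.70, was not called, but was without *Snx14*-KO cortex 2 (1.54), without that library and *Snx14*-KO cerebellum 3 (1.85) and with the mouse number as a block (0.73). *Aldh1a2* had a log2 fold change of 1.25 between the tissues (SE 0.238), against 0.26 in WT mice (SE 0.227), and both comparisons share cerebellum libraries with the one it was picked on. The cerebellar neuron and forebrain neuron genes separated the tissues in both genotypes, as their names say: all 13 and all 12 were called. All 13 choroid plexus genes were also called in both genotypes, as higher in cerebellum. Their libraries overlapped in WT mice, with a sum of 92.1 CPM in WT cerebellum 1 and 157 CPM in WT cortex 1.

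**Figure D3:**
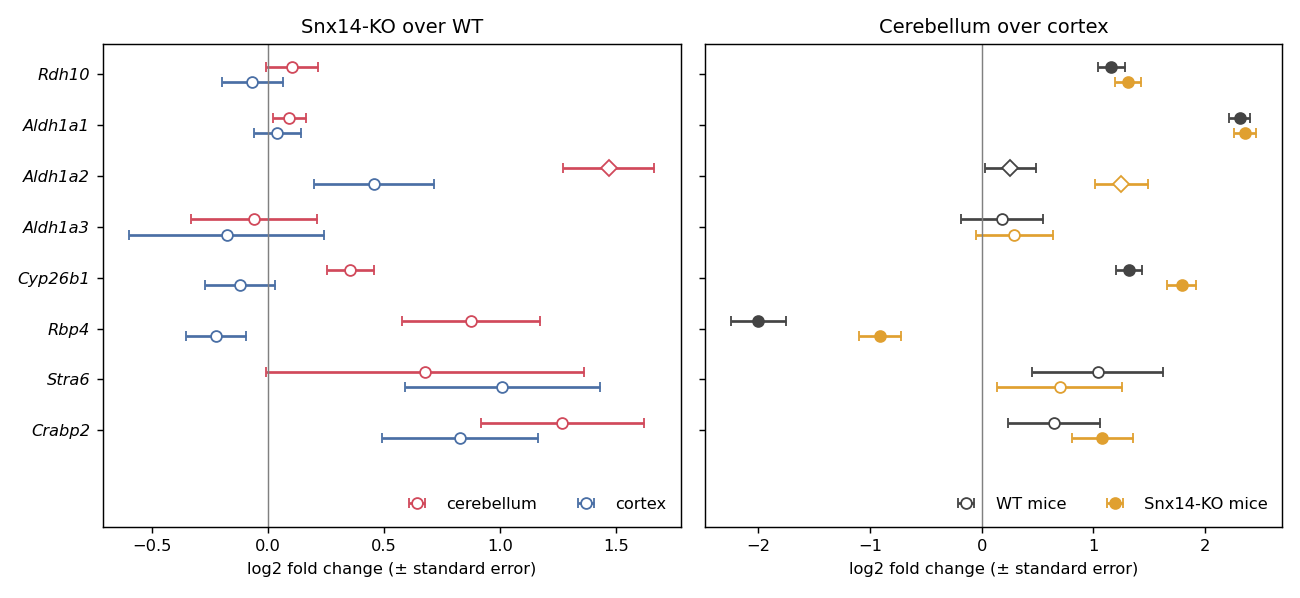
log2 fold change of 8 of the genes with its standard error (bars) by edgeR: left, *Snx14*-KO over WT in cerebellum and cortex; right, cerebellum over cortex in WT and *Snx14*-KO mice. Filled circles were called and open circles not; diamonds are *Aldh1a2* where its cerebellum libraries enter, with no test, and *Rbp4* is the only one of the 8 genes below 0 in the right panel.

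Compared per kilobase of exon, *Aldh1a1* was the highest of the 9 genes in all 4 groups, at 72.7 CPM per kb ± 3.78 (SD, n = 3) in WT cerebellum and 14.7 ± 1.81 (SD, n = 3) in WT cortex. *Rdh10* and *Cyp26b1* followed in WT cerebellum, at 5.55 and 4.29 CPM per kb, and their libraries did not overlap. Below *Cyp26b1*, *Rbp4*, *Aldh1a2*, *Crabp2*, *Stra6* and *Aldh1a3* came in this order, and each overlapped the next. In WT cortex *Rbp4* had rank 2, at 12.4 CPM per kb ± 0.570 (SD, n = 3), above *Rdh10* at 2.49 and *Aldh1a2* at 2.44 CPM per kb, which overlapped. *Crabp1* and *Aldh1a3* were the lowest in each group.

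No other gene of the pathway was called between the genotypes by edgeR. Of the retinol handling genes, 18 of 32 listed were tested in cerebellum and 10 were higher in *Snx14*-KO, with a median of 0.01 on the log2 scale. Of 14 genes for retinoic acid receptors and their cofactors, 7 were higher, with a median of -0.00, and of 7 retinoic acid targets tested 4 were higher, with a median of 0.19. In cortex, 10 of 17, 9 of 14 and 4 of 7 were higher, with medians of 0.02, 0.02 and 0.01. In cerebellum, the log2 fold change was 0.47 for *Rdh9* (SE 0.405), 0.26 for *Bco2* (SE 0.359), 0.37 for *Rxra* (SE 0.123), 0.36 for *Tgm2* (SE 0.185) and 0.21 for *Dhrs3* (SE 0.103). In cortex it was 0.21 for *Rlbp1* (SE 0.125), 0.20 for *Rdh11* (SE 0.0953), 0.29 for *Rara* (SE 0.204) and -0.40 for *Meis1* (SE 0.272). *Fabp5*, which carries retinoic acid to PPARD, was at 69.5, 55.7 and 55.9 CPM in WT and at 84.0, 96.2 and 95.8 CPM in *Snx14*-KO cerebellum. All 3 *Snx14*-KO cerebella were above the WT cerebella, with a log2 fold change of 0.62 (SE 0.0997), which DESeq2 called (adjusted p = 2.38e-05) and edgeR did not (adjusted p = 0.134). *Meis2*, a homeobox gene, was at 7.61, 5.76 and 6.54 CPM in WT and at 28.7, 4.63 and 29.4 CPM in *Snx14*-KO cerebellum, high in the 2 libraries that also held *Six3*.

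*Rxrg*, a retinoid X receptor found in striatal neurons, was at 0.722, 0.807 and 0.429 CPM in WT and at 1.77, 0.991 and 1.79 CPM in *Snx14*-KO cerebellum, a log2 fold change of 1.23 (SE 0.389, adjusted p = 0.407 by edgeR). In cortex it was at 5.47, 11.5 and 5.23 CPM in WT and at 2.87, 4.06 and 2.20 CPM in *Snx14*-KO libraries. The groups did not overlap there, with a log2 fold change of -1.27 (SE 0.321, adjusted p = 0.883 by edgeR and 0.0466 by DESeq2, which called 0.0493% of genes in cortex, while edgeR called 0.00548%). WT cortex 2 was the highest in *Rxrg* and had the highest striatal gene sum. *Rarb*, a retinoic acid receptor, was also highest in that library, at 17.1 CPM against 7.70 and 8.70 CPM in the other WT cortices. The part of tissue taken beside the cortex or cerebellum in *Meis2*, *Rxrg* and *Rarb* was not tested. In cortex, *Ttr* had a log2 fold change of -3.38 (SE 0.855, adjusted p = 0.883 by edgeR), and 1 WT library, at 121 CPM, stood above the other 5, at 2.25 to 12.5 CPM.

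**Figure D4:**
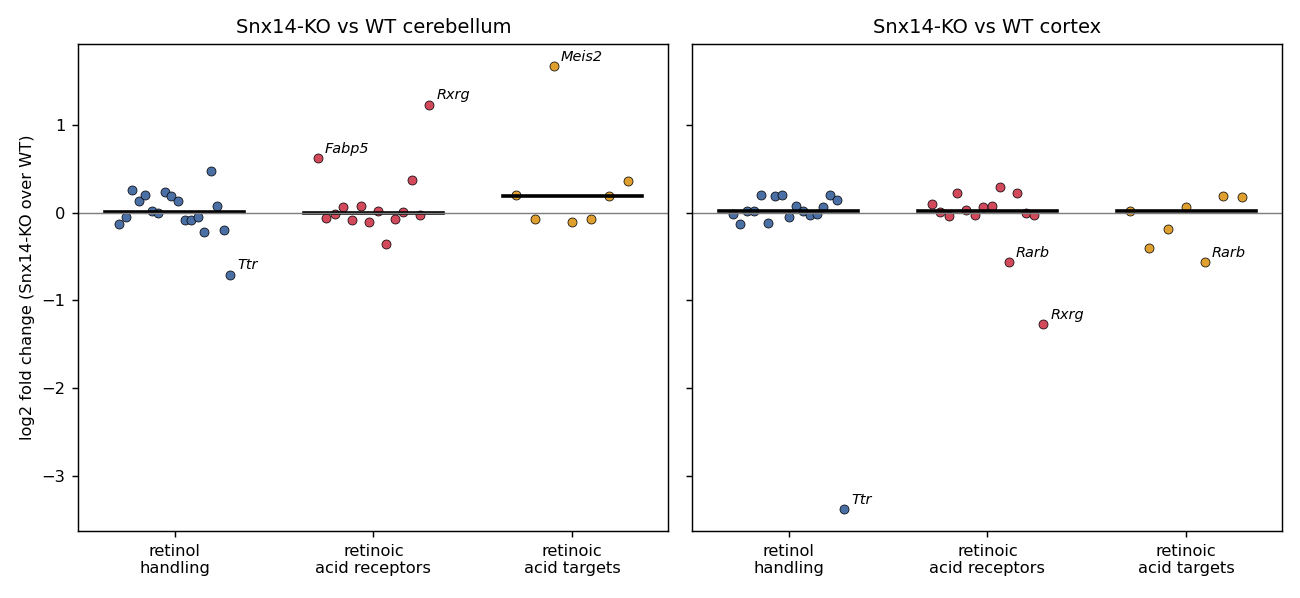
log2 fold change of *Snx14*-KO over WT by edgeR for each tested gene of 3 lists of the wider pathway (points; bars are list medians) in cerebellum and cortex, with genes beyond 0.50 named. Most points lie near 0, *Meis2*, *Rxrg* and *Fabp5* are the highest in cerebellum and *Ttr* and *Rxrg* the lowest in cortex, and none was called by edgeR.

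Between the tissues, 10 of the 17 retinol handling genes tested were called in WT mice, 7 of them higher in cerebellum, against 40.4% of all genes called in that comparison. *Rdh5*, a retinol dehydrogenase, had a log2 fold change of 1.40 (SE 0.0805) and *Rdh11* of 1.06 (SE 0.0910), while *Rpe65*, the retinoid isomerase, had -1.91 (SE 0.440). Also higher in WT cerebellum were *Ttr* by 6.04 (SE 1.5), *Dhrs4* by 1.01 (SE 0.133), *Adh5* by 0.68 (SE 0.0830), *Dhrs3*, which reduces retinaldehyde, by 0.63 (SE 0.115) and *Rdh13* by 0.54 (SE 0.0941). *Ttr* overlapped between the tissues, at 53.1, 2510 and 6850 CPM in WT cerebellum 1 to 3 and 121, 9.87 and 12.5 CPM in WT cortex 1 to 3. The part of choroid plexus RNA in this difference was not tested. *Bco2*, a carotenoid oxygenase, was lower at -1.46 (SE 0.272) and *Rlbp1*, a retinaldehyde binding protein, at -0.69 (SE 0.133). Of the receptor genes 4 of 14 were called, against the same 40.4%, with *Rara* higher in cerebellum at 0.79 (SE 0.196) and *Rxrg* lower at -3.49 (SE 0.389), *Ppard* higher at 0.53 (SE 0.0919) and *Fabp5* lower at -0.63 (SE 0.0898). Of the targets, *Meis1* was higher in cerebellum by 3.25 on the log2 scale (SE 0.179) and *Meis2* lower, at -3.90 (SE 0.118), both called by edgeR. In *Snx14*-KO mice, *Ppard* at 0.47 (SE 0.0849, adjusted p = 0.00114 by edgeR) and *Rdh13* at 0.37 (SE 0.103, adjusted p = 0.0132 by edgeR) missed only the limit of 0.50, and *Rara* at 0.14 (SE 0.238) and *Fabp5* at -0.12 (SE 0.0782) were not called either, while *Rarb* was called as higher in cerebellum at 0.61 (SE 0.165) and *Ncoa3*, a receptor cofactor, as lower at -0.53 (SE 0.109). *Lrat*, which stores retinol as esters, had 1.04 there (SE 0.720, not called). For the difference of the genotype changes between the tissues, *Ttr* had 2.67 (SE 1.72), *Rpe65* -1.42 (SE 0.731) and *Lrp2* -0.94 (SE 1.09) among the retinol handling genes. The receptor genes *Rxrg*, *Rara* and *Fabp5* had 2.49 (SE 0.547), -0.66 (SE 0.340) and 0.51 (SE 0.124), and the targets *Meis2*, *Lrat* and *Rarb* 1.84 (SE 0.566), 0.71 (SE 1.12) and 0.48 (SE 0.341), none called by edgeR. *Cyp26a1* and *Cyp26c1*, the sister enzymes of *Cyp26b1*, were at 0 counts in at least 1 library of every group.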

How the data were processed

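RNA of whole cerebellum and cerebral cortex was measured by RNA-Seq in 12 libraries. Per the labels and the paper's methods, the authors aligned reads to GRCm38 (mm10) using STAR, assigned pairs to genes by featureCounts (Subread 2.0.1), ignoring strand and counting a pair for each gene it overlapped, and deposited raw counts. No exon base of the 9 genes is shared with another gene. Spike-in and other features (97 and 26248 of 81881) were left out. Genes passing filterByExpr were tested with edgeR 4.0.16 (R 4.3.3; TMM, quasi-likelihood test, Benjamini-Hochberg adjustment over all genes tested); DESeq2 1.42.0 was an alternative. The test was tried on simulated data with known changes larger than those fitted for these genes between the genotypes. No simulated library held RNA of neighbouring tissue, so this does not show how the test does at smaller changes. CPM are TMM-normalized. The sources used here do not give the litters of the mice sequenced, so p-values measure the spread between the 3 libraries of a group. Where RefSeq lists several starts of a gene, the window is that of the start with most GENCODE transcripts within 100 bases.

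The 9 genes and the lists were chosen with earlier results of these data known. The labels give each mouse the same number in both tissues, which pairs the tissues by mouse. Same-numbered libraries correlated at 0.03 to 0.37. The main fits had no term for the mouse, and fits with the mouse number as a block are given below. For pathway genes the text names those called in any comparison or among the 3 with the largest change of their list, except 1 not reported here, and *Cyp26a1* and *Cyp26c1*, *Six3*, *Nrgn*, *Ppp1r1b*, *Penk*, *Col1a1* and *Foxc1* beside them. The most alike genes were those with the highest Pearson's r of log2(CPM + 1) among genes with a mean of at least 1 CPM; 1 of them is not reported here. Alternatives covered scaling, filter, tool, fit, replicate block and each library left out; leaving out the libraries that stood apart was chosen after seeing the data.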

Additional observations from a re-analysis of the deposited data

Results flagged for a closer look

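In 4 genes of the pathway, every *Snx14*-KO library of one tissue lay on one side of the WT mean and every *Snx14*-KO library of the other tissue on the opposite side. Tested over all 12 libraries were 8 of the 9 genes, 20 retinol handling genes, 14 receptor genes and 8 targets, with some genes on more than 1 list. The share of all genes with this pattern was not counted, so the number of 4 is no result about the pathway. The log2 fold change in cerebellum minus that in cortex was 1.09 for *Rbp4* (SE 0.335, adjusted p = 0.518 by edgeR) and 2.49 for *Rxrg* (SE 0.547, adjusted p = 0.255 by edgeR), both higher in *Snx14*-KO cerebellum and lower in *Snx14*-KO cortex. It was -0.18 for *Rdh13* (SE 0.130, adjusted p = 1.00 by edgeR) and -0.19 for *Nrip1* (SE 0.107, adjusted p = 0.973 by edgeR), in the opposite direction. None of these differences passed the test over all genes by edgeR. DESeq2 called that of *Rxrg* (adjusted p = 0.0121) and not that of *Rbp4* (adjusted p = 0.169). *Rxrg* was highest in WT cortex 2, where striatal genes were also high.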

How the results depend on the processing

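Between the genotypes, how many genes passed depended on the tool, the filter and single libraries. In cerebellum, 1 gene was called; DESeq2 called 164, scaling to total counts 2, no filter 347 and all 12 libraries in one fit 25, and with 1 library left out 1 to 254 were called, the last without *Snx14*-KO cerebellum 2. In cortex, 1 gene was called; DESeq2 called 9, no filter 149, all libraries in one fit 2, and leaving out cortex 2 of both genotypes 5; with 1 library left out, 1 to 2. For the difference between the tissues, 0 were called; DESeq2 called 40, no filter 418, and with 1 library left out 0 to 257.

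Of the 8 genes other than *Aldh1a2*, 0 were called in cerebellum, also by DESeq2 and with all libraries in one fit. No filter called 1 in cerebellum (*Crabp2*), 1 in cortex (*Stra6*) and 1 in the difference between the tissues (*Rbp4*), where 0 had been called. The log2 fold change of *Aldh1a2* in cerebellum ran from 1.28 to 1.71 with 1 library left out, and that of *Crabp2* from 0.95 to 1.79.

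With the mouse number as a block, 7449 genes were called between the tissues in WT and 6866 in *Snx14*-KO mice, and *Stra6* passed in *Snx14*-KO mice (0.73). As a block between the genotypes, whose numbers were not shown to pair (correlations -0.10 to 0.09), it left 1 gene called in cerebellum and 1 in cortex, and 0 of the 8 genes other than *Aldh1a2*. It called 0 genes for the difference between the tissues and turned *Stra6* there from -0.34 to 0.052.

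With 1 library left out, several log2 fold changes turned. That of *Stra6* ran from -0.12 (without *Snx14*-KO cerebellum 2) to 1.74 (without WT cerebellum 3) in cerebellum, from -0.020 to 1.51 between the WT tissues, from -0.085 to 1.54 between the *Snx14*-KO tissues and from -1.13 to 0.72 for the difference between the tissues. That of *Aldh1a1* ran from -0.048 to 0.13 in cortex and from -0.056 to 0.12 for that difference. That of *Aldh1a3* ran from -0.18 to 0.053 in cerebellum, from -0.45 to 0.32 in cortex, from -0.098 to 0.68 between the WT tissues and from -0.40 to 0.38 for that difference. The libraries left out as standing apart differed by comparison. *Aldh1a3* was 0.14 in cerebellum without *Snx14*-KO cerebellum 1 and 3, where 1 *Snx14*-KO library was left and is taken to vary like the WT ones, and -0.22 between the WT tissues without WT cerebellum 1 and WT cortex 2. *Aldh1a2* was -0.068 in cortex without cortex 2 of both genotypes. The cause was not tested.

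Scaling to total counts moved the median of all genes between the tissues from 0.02 to 0.15 in WT and from 0.02 to 0.16 in *Snx14*-KO mice. Ranked by Spearman's rho, 0 of the 3 genes most like *Aldh1a2* stayed among its first 3, and likewise for *Aldh1a3*, *Rbp4*, *Crabp2* and *Stra6*. *Crabp2* rested on 99 read pairs over the WT cerebella and 65 over the WT cortices, and *Crabp1* was too low to test.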
